A study of Mus musculus with 4 samples.

Results

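The mRNAs of 9 cholesterol synthesis enzymes, Hmgcs1, Idi1, Fdps, Fdft1, Sqle, Lss, Cyp51, Msmo1 and Dhcr7, were followed through 6 brain regions of 8 mice. They were chosen by gene name, and all 9 were listed on every array, among 22376 genes in all. The study asked what a week of raised activity does to dopamine neurons. The 3 GqCNO mice carried the activating receptor hM3Dq in these neurons and drank clozapine-N-oxide (CNO, 300 mg/L), its ligand, with 2% sucrose for 1 week. The 3 GqVeh mice carried the same virus and drank sucrose alone, and the 2 CNO alone mice had no virus and drank CNO with sucrose. All 8 were male, 3 to 4 months old, of the genotype DAT (iCre/iCre), and were housed singly with a running wheel. The Cre recombinase sat at the dopamine transporter gene and limited hM3Dq-mCherry to cells that use that gene, and both copies of the gene carried the insertion in controls as well. RNA was captured from 10 µm sections on Visium arrays, in round spots called discs that can each hold parts of several cells, and counted as unique molecular identifiers (UMIs). A midbrain and a striatal array (array pair 1) were shared by mice 801 and 804 (GqCNO), 802 (GqVeh) and C2W2 (CNO alone), and the other arrays (array pair 2) by mice 781 (GqCNO), 784 and 785 (GqVeh) and C1W7 (CNO alone).

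Cells make cholesterol from acetyl-CoA. The mevalonate steps yield isoprene units, these are joined to squalene, and squalene is closed to lanosterol and trimmed to cholesterol. Plasma lipoproteins hardly cross into the brain, so that neural tissue makes its own cholesterol, and oligodendrocytes use much of it for myelin. When membrane sterol is low, the transcription factor SREBP2 is released and turns most of these genes on together.

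Levels are given as UMIs per 10000 UMIs of the same region and mouse. The regions were the substantia nigra (SN), ventral tegmental area (VTA) and thalamus on the midbrain arrays, and white matter tracts, the lateral septal complex (LSX) and the caudate putamen (CP) on the striatal arrays. Depth differed widely, with 7779 to 71906 UMIs per mouse in the SN, 25808 to 350222 in the VTA, 80837 to 444790 in the thalamus, 119422 to 405313 in white matter, 80525 to 1354667 in the LSX and 4300381 to 7977003 in the CP. Over all mice the 9 enzymes gave 254 UMIs in the SN, 1288 in the VTA, 864 in the thalamus, 1679 in white matter, 2091 in the LSX and 15710 in the CP. GqCNO mouse 801 had no thalamus values, so that 7 mice remained there. In the SN of GqVeh mouse 784 the enzymes gave 6 UMIs of 11644, and a count of 0 there allows a level of up to 2.58 (3 UMIs, for counting error only). The dopamine gene Th was at 5.14 or more in every SN, against 0.142 or less in every CP. Per the methods, Th, Slc6a3 and Slc18a2 served to pick SN and VTA discs, and Prkcd, Ptpn3 and Synpo2 thalamus discs. Prkcd served for LSX discs, Ppp1r1b for CP discs and Mbp for white matter discs. Discs high in the astrocyte genes Gfap and Aldh1l1 or the microglia genes Aif1 and P2ry12 were left out. Differences of these genes, and of the marker lists that hold them, were thus in part set by that choice. The summed level of 11 oligodendrocyte markers was 414 or more in every white matter sample, and genes of cortical excitatory neurons reached a sum of 15.4 there, against 0.656 at most in the CP. In such tissue values, fewer cells of a type and less RNA per cell cannot be told apart.

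RefSeq promoters (GRCm38.p6, the assembly of mm10) were at hand for 6 of the 9 enzymes. Of these, 3 are shown, those of the enzymes whose CP levels differed between GqCNO mice and controls at an unadjusted p under 0.05, each as the 250 bases before the gene start on the strand of the gene. Capitals mark matches to TCACNCCA, the core of a sterol regulatory element to which SREBP binds, to CCAAT, the NF-Y motif, and to GGGCGG, the Sp1 motif, each on either strand.
Hmgcs1, chr13:119690101-119690350, plus strand: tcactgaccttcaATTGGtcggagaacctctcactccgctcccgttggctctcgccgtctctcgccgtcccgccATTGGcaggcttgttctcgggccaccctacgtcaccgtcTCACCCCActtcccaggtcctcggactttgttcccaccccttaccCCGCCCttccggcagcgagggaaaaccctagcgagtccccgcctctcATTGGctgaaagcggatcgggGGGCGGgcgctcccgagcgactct
Idi1, chr13:8885356-8885605, plus strand: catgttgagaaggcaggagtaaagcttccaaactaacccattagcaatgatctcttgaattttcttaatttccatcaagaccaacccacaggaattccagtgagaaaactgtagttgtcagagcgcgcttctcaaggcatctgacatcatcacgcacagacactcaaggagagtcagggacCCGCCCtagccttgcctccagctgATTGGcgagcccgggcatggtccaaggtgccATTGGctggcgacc
Msmo1, chr8:64733579-64733828, minus strand: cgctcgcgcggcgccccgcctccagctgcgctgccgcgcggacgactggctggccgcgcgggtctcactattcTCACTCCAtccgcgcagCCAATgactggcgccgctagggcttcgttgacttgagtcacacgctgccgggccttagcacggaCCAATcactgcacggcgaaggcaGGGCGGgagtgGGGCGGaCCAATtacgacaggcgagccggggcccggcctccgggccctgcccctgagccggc
Hmgcs1 held TCACNCCA 137 bases before its start and Msmo1 177 bases before, and no listed promoter of Idi1, Lss, Cyp51 and Dhcr7 held a match. From 250 bases before to 50 after a start, 4.36% of 32851 RefSeq promoters, and 4.97% of 27025 genes in at least 1 promoter, have such a match. Each of the 6 enzymes had CCAAT and GGGCGG in at least 1 listed promoter (Dhcr7 has several), against 41.1% and 38.2% of those genes. These are matches of letters and no evidence of binding.

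White matter stood above the gray matter of the striatal sections in 8 of the 9 enzymes. In the 5 control mice, white matter was set against the CP of the same section, and Hmgcs1, Idi1, Fdps, Fdft1, Sqle, Cyp51, Msmo1 and Dhcr7 were higher at an adjusted p under 0.05 (limma on the log2 difference per mouse, Benjamini-Hochberg over 10093 genes). Of all genes, 13.4% were higher and 25.5% were lower in white matter. The median log2 difference was 1.15 over the 9 enzymes and -0.22 over all genes. The same 8 enzymes were higher in white matter than in the LSX, where 9.6% of 10134 genes were higher and 24.3% lower, or 1297 higher and 1375 lower with TMM scaling in place of 973 and 2462. There the median was 0.89 over the enzymes and -0.29 over all genes.

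Hmgcs1 (chromosome 13, 119690351 to 119708260) encodes the synthase that makes HMG-CoA. Its white matter levels were 2.30, 2.32 and 2.35 in the GqVeh mice 802, 784 and 785, and 2.64 and 1.57 in the CNO alone mice C2W2 and C1W7. The CP levels in the same order were 0.740, 0.804 and 0.796, then 0.780 and 0.786. The regions did not overlap, with means of 2.24 ± 0.398 in white matter and 0.781 ± 0.0247 in the CP (SD, n = 5 each), a log2 difference of 1.44 (standard error, SE, 0.14, adjusted p = 2.54e-07). The GqCNO mice, which that fit left out, had 1.34, 2.00 and 2.05 in white matter against 0.557, 0.633 and 0.623 in the CP (mice 801, 804 and 781), so that all 8 mice showed the direction. The LSX had 0.651 to 1.20 in controls, below the CP in GqVeh mouse 784 and above it in the other 4, and white matter exceeded the LSX by 1.10 (adjusted p = 0.000144).

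Idi1 (chromosome 13, 8885606 to 8892396) encodes the isomerase that interconverts the 2 isoprene units. Its white matter levels in controls were 0.539, 0.317 and 0.651 (GqVeh) and 0.552 and 0.0950 (CNO alone), against 0.157, 0.149 and 0.186, then 0.163 and 0.178 in the CP. CNO alone mouse C1W7 was the one control with less in white matter. The log2 difference was 0.96 (SE 0.30, adjusted p = 0.0168), higher in 6 of 8 mice. It lost the call without any one of mice 802, 785 and C2W2 (adjusted p = 0.082, 0.0836 and 0.0679), and with no filter on the mean level (adjusted p = 0.0774).

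Fdps (chromosome 3, 89093588 to 89101967) encodes the synthase of farnesyl diphosphate, the last product shared with the other branches of the pathway. White matter held 1.28, 1.94 and 1.40 in GqVeh mice and 1.29 and 1.38 in CNO alone mice, against 0.580, 0.732 and 0.571, then 0.554 and 0.687 in the CP. The ranges stood apart, and the log2 difference was 1.15 (SE 0.15, adjusted p = 5.52e-06). Against the LSX it was 1.49 (SE 0.23, adjusted p = 4.6e-05). GqCNO mouse 801, at 0.502 in white matter and 0.521 in the CP, was the only mouse without the white matter excess.

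Squalene is made and closed by the next 3 enzymes, and here the gap was less even. Fdft1 (chromosome 14, 63145150 to 63181687), squalene synthase, averaged 1.26 ± 0.360 in white matter and 0.739 ± 0.133 in the CP (SD, n = 5), a log2 difference of 0.71 (SE 0.16, adjusted p = 0.00211). Its 5 control mice ran from 0.859 to 1.68 in white matter, against 0.548 to 0.865 in the CP, so that the ranges overlapped slightly. Sqle (chromosome 15, 59315092 to 59331193), squalene epoxidase, a second control point of the pathway, was at 0.454, 0.920 and 0.952 in GqVeh and 0.552 and 0.237 in CNO alone white matter, against 0.172, 0.198 and 0.247, then 0.138 and 0.194 in the CP. Each of the 8 mice had more Sqle in white matter, by 1.36 on the log2 scale in controls (SE 0.25, adjusted p = 0.000291). Lss (chromosome 10, 76531565 to 76557139), which closes oxidosqualene to lanosterol, was the enzyme that did not pass. It had 0.170, 0.0635, 0.10, 0.246 and 0.285 in control white matter, against 0.123, 0.0765, 0.108, 0.118 and 0.106 in the CP (mice in the order above), with a log2 difference of 0.41 (SE 0.29, adjusted p = 0.287). Lss values overlapped and were the thinnest of the 9 in the CP, with 449 UMIs over all mice.

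The late enzymes, which turn lanosterol to cholesterol, were all higher in white matter. Cyp51 (chromosome 5, 4080674 to 4104697), the lanosterol demethylase, had 0.965, 0.508 and 0.551 in GqVeh and 0.430 and 0.522 in CNO alone white matter, against 0.223, 0.228 and 0.229, then 0.231 and 0.198 in the CP. The ranges did not overlap in controls, and the log2 difference was 1.20 (SE 0.22, adjusted p = 0.000254). Dhcr7 (chromosome 7, 143823167 to 143848410), whose product makes the last reduction to cholesterol on one branch, had 0.568, 0.381 and 0.401 in GqVeh and 0.368 and 0.570 in CNO alone white matter, against 0.145, 0.179 and 0.177, then 0.195 and 0.125 in the CP. All 8 mice had more Dhcr7 in white matter, by 1.23 in controls (SE 0.24, adjusted p = 0.000478).

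Msmo1 (chromosome 8, 64718123 to 64733578) encodes an oxidase that takes part in the removal of methyl groups from the sterol ring. Its white matter levels were 1.62, 1.11 and 1.10 in GqVeh and 0.798 and 0.902 in CNO alone mice, against 0.614, 0.871 and 0.806, then 0.617 and 0.779 in the CP. Each mouse had more in white matter, although the ranges overlapped. The log2 difference was 0.53 (SE 0.18, adjusted p = 0.0236), and without GqVeh mouse 802 it was 0.33 (adjusted p = 0.189). With no filter on the mean level, Msmo1 also missed the threshold (adjusted p = 0.0611).

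**Figure D1:**
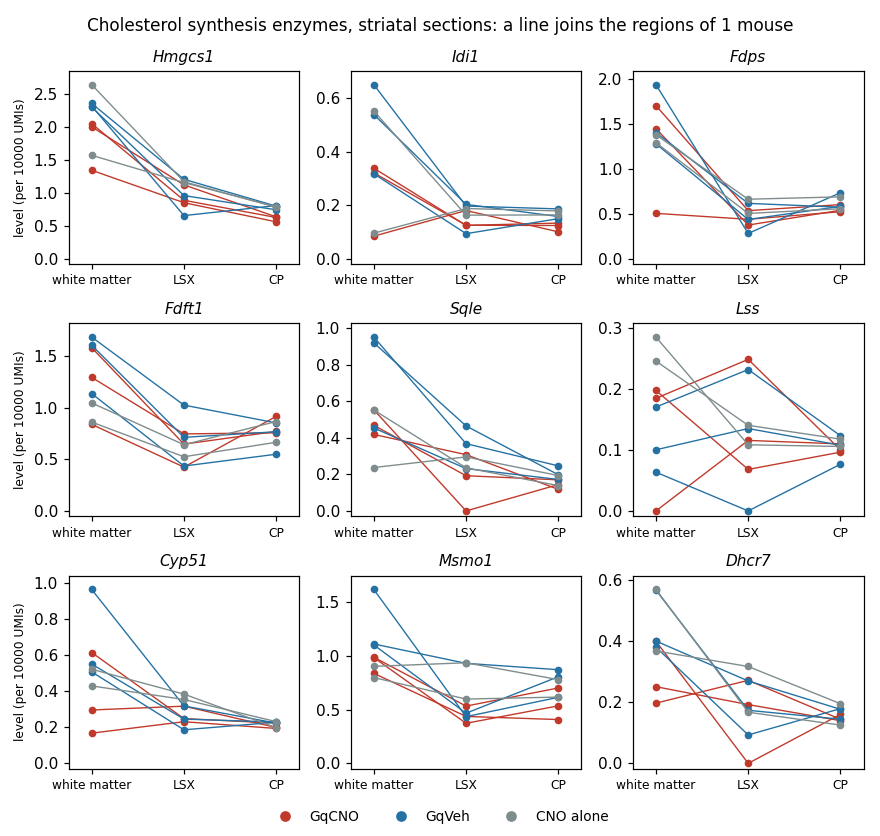
Level of each enzyme (UMIs per 10000 UMIs, vertical axes from 0) in white matter, LSX and CP, with 1 point per mouse and region, a line joining the regions of 1 mouse and colours for GqCNO, GqVeh and CNO alone. Hmgcs1, Sqle, Msmo1 and Dhcr7 were above the CP in the white matter of all 8 mice, while Lss shows no common order.

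Against the LSX the log2 differences in white matter were 0.98 for Idi1 (adjusted p = 0.0367), 0.89 for Fdft1 (0.00155), 0.76 for Sqle (0.0344), 0.87 for Cyp51 (0.0153), 0.70 for Msmo1 (0.0309) and 1.05 for Dhcr7 (0.0117). Lss again did not pass, at 0.45 (adjusted p = 0.394). Of the 8 enzymes that passed, Hmgcs1, Fdps and Fdft1 passed without any one mouse, while the number called was 3 without GqVeh mouse 802 and 4 without GqVeh mouse 785. The LSX and the CP differed in 1 of the 9 enzymes. Sqle was at 0.319 ± 0.0985 in the LSX and 0.190 ± 0.0396 in the CP (SD, n = 5), a log2 difference of 0.60 (SE 0.17, adjusted p = 0.0209), and 7 of 8 mice had more in the LSX. In that comparison 17.5% of 10262 genes were higher and 11.6% were lower, or 938 higher and 1867 lower with TMM scaling in place of 1800 and 1188. Sqle missed the threshold with that scaling (0.41, adjusted p = 0.078), where 1 other enzyme, not named here, was called. It also missed the threshold without GqVeh mouse 785 or CNO alone mouse C2W2 or C1W7. Without GqVeh mouse 784, 3 enzymes were called in the LSX, among them Hmgcs1 (0.50, adjusted p = 0.000551).

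In the white matter the markers of several cell types differed beside the enzymes. All 11 oligodendrocyte markers were higher than in the CP, with summed levels of 414 to 945 in the white matter of the 8 mice, against 54.2 to 81.8 in the CP and 9.70 to 33.8 in the LSX. All 6 markers of their precursors were also higher, 7 of 10 microglia markers and 6 of 9 astrocyte markers were higher, and 7 of 8 general neuron markers and 8 of 8 striatal projection neuron markers were lower. Mbp among the oligodendrocyte markers and Ppp1r1b among the striatal ones had served to pick the discs. The white matter samples further held mRNAs of cortical excitatory neurons. The sum of 8 such genes, a list chosen after values had been seen, was 0.586 to 15.4 in white matter, against 0.236 to 0.656 in the CP and 0.147 to 0.436 in the LSX. Cplx3, Nxph3 and Neurod2 of that list are among the genes whose levels ran most like the summed enzymes over these same samples, given below. A cortical sum that runs with the enzymes was thus in part set by the choice of list. In GqCNO mouse 801, the white matter sample with the least of these (0.586), the 9 enzymes summed to 4.44 in white matter, against 3.06 in the CP and 3.17 in the LSX. In the other 7 mice the white matter sum of the enzymes was 6.60 to 9.23. GqVeh mouse 784 had the highest sum of the enzymes (9.23), the highest sum of the cortical genes (15.4) and the lowest sum of the oligodendrocyte markers (414). Mice 801 and 784 are single samples picked by their sums, and the part of these cell types in the white matter levels was not tested.

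Other genes of sterol metabolism followed in part. Of 13 further mevalonate and sterol enzymes tested against the CP, 5 were higher in white matter and 0 were lower (median log2 difference 0.28). These included Ebp, the sterol isomerase (1.13, adjusted p = 0.00035), Sc5d, the desaturase just before Dhcr7 (0.94, adjusted p = 0.00106), and Lbr, a sterol reductase of the nuclear envelope (1.23, adjusted p = 0.0054). Among 7 genes of sterol sensing, Srebf1 (1.35, adjusted p = 9.62e-06) and Insig1, which holds SREBP back in the endoplasmic reticulum (1.28, adjusted p = 6.05e-05), were higher, and Mbtps1, the protease that first cuts SREBP (adjusted p = 0.00117), and 1 further gene, Insig2, were lower. Of the genes of uptake and transport, Npc2, Npc1 and Lipa, which free cholesterol from lysosomes, were 3 of 9 tested that were higher (1.30, 1.76 and 1.23), and 1, Lrp1, was lower. Among 6 tested genes of export and turnover, Apoe, the main lipoprotein of the brain, was higher (0.77, adjusted p = 2.21e-06), while Cyp46a1, the hydroxylase by which neurons dispose of cholesterol (-1.75, adjusted p = 2.01e-07), and Abcg4, a sterol exporter (-1.42, adjusted p = 0.00108), were lower. Fatty acid genes that SREBP also governs were higher in 8 of 10 cases and lower in 1, led by the desaturases Scd2 (1.72, adjusted p = 1.72e-10) and Scd1 (2.30, adjusted p = 1e-09).

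In the midbrain, 4 enzymes were higher in the VTA than in the thalamus. The comparison covered the 5 control mice and 8 of the 9 enzymes, since Lss was below the minimum mean level of 0.25. Fdps, Fdft1, Sqle and Msmo1 passed, among 22.9% of 5366 genes that were called (644 higher and 583 lower in the VTA, or 335 and 584 with TMM scaling). The median log2 difference was 0.61 over the 8 enzymes and 0.02 over all genes. Fdps had 1.41, 1.72 and 1.94 in GqVeh and 2.57 and 2.23 in CNO alone VTA, against 0.647, 0.505 and 0.596, then 0.990 and 0.20 in the thalamus. All 7 mice with both regions had more Fdps in the VTA, by 1.21 in controls (SE 0.19, adjusted p = 0.000119). Fdft1 was at 1.87, 2.06 and 3.49, then 1.78 and 2.14 in the VTA, against 0.647, 0.707 and 0.521, then 1.11 and 0.650 in the thalamus. The 2 regions did not overlap for Fdft1, and its log2 difference was 1.16 (SE 0.20, adjusted p = 0.00022).

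Msmo1 had 1.41, 1.28 and 3.87 in GqVeh and 1.58 and 2.11 in CNO alone VTA, against 0.846, 0.707 and 0.596, then 0.866 and 0.750 in the thalamus. Its control ranges were also apart, with GqVeh mouse 785 well above the other mice, and the log2 difference was 0.94 (SE 0.21, adjusted p = 0.00243). The VTA of mouse 785 was thin, with 2 discs and 25808 UMIs, of which 10 were Msmo1 and 9 were Fdft1. Sqle averaged 0.847 ± 0.341 in the VTA and 0.288 ± 0.112 in the thalamus (SD, n = 5), a log2 difference of 0.74 (SE 0.21, adjusted p = 0.0123) with 5 of 7 mice higher in the VTA. It missed the threshold without GqVeh mouse 784 or either CNO alone mouse (adjusted p = 0.0516 to 0.0585). Hmgcs1 differed by 0.47 (adjusted p = 0.0827), or by 0.62 without CNO alone mouse C2W2 (adjusted p = 0.0475) and 0.28 without CNO alone mouse C1W7 (adjusted p = 0.42). Idi1 (0.44), Cyp51 (0.16) and Dhcr7 (-0.18) did not pass.

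No other sterol synthesis enzyme, of 7 tested, was called between the VTA and the thalamus, and neither was any of 9 fatty acid genes or 6 genes of sterol sensing. Npc2 was higher in the VTA (0.96, adjusted p = 0.00221) and Cyp46a1 was lower (-1.24, adjusted p = 7.89e-05). Beside the enzymes, the 8 dopamine neuron markers summed to 55.0 to 85.5 in control VTA, against 0.742 to 2.57 in control thalamus, where En1 was at 0 in every mouse. Th, Slc6a3 and Slc18a2 among them had served to pick the VTA discs. The 11 oligodendrocyte markers overlapped, at 58.5 to 163 in control VTA and 78.9 to 139 in control thalamus, and 1 of them, Mog, was higher in the VTA. Of the general neuron markers 2 were higher and 4 were lower in the VTA, and 3 of 7 tested microglia markers were higher. The part of these cells in the difference was not tested.

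**Figure D2:**
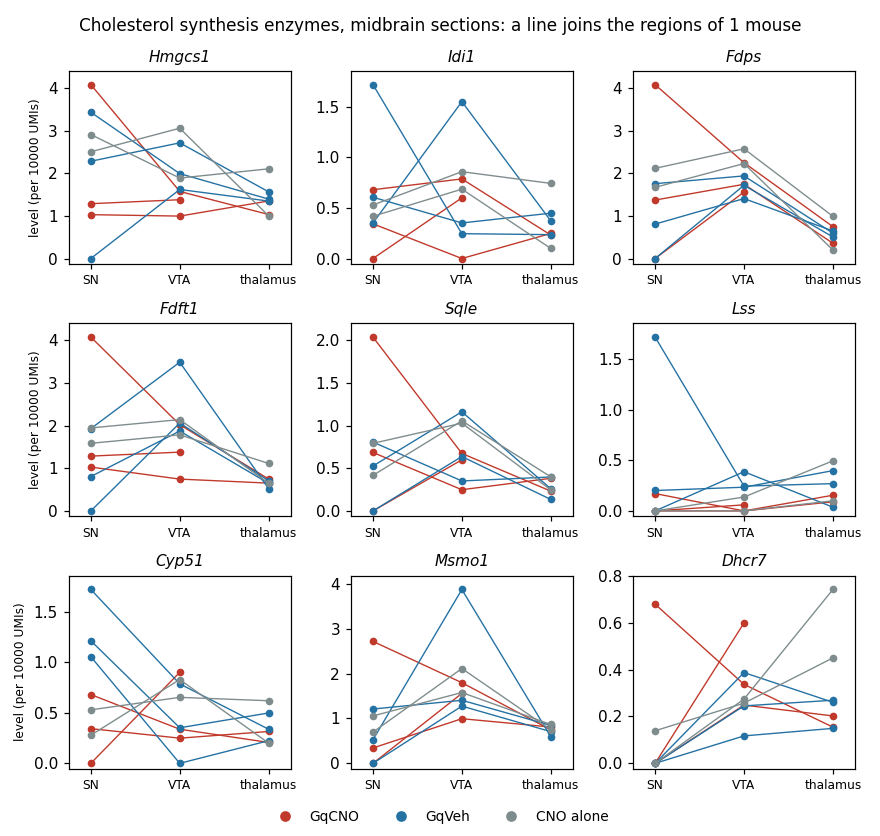
Level of each enzyme (UMIs per 10000 UMIs, vertical axes from 0) in SN, VTA and thalamus, with 1 point per mouse and region and a line joining the regions of 1 mouse, coloured by group. For Fdps, Fdft1 and Msmo1 the VTA was above the thalamus in all 7 mice with both regions, and the SN points scatter most.

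The SN rested on few UMIs, and no enzyme was called there. Against the thalamus 0 of 7 tested enzymes passed, where 12.4% of 5093 genes did (258 higher and 376 lower, or 61 and 638 with TMM scaling), and edgeR called 1 enzyme. Without GqVeh mouse 784, whose SN held no UMI of Hmgcs1, Fdps, Fdft1, Sqle or Msmo1, 2 passed. Against the VTA 0 of 7 passed among 6 genes called (0.112% of 5341), in limma and in edgeR. The lowest unadjusted p were those of Msmo1 (log2 difference -1.12, unadjusted p = 0.000232 and adjusted p = 0.121 in limma), Fdft1 (-0.83, unadjusted p = 0.00341) and Fdps (-0.67, unadjusted p = 0.0199). The share of all genes with such an unadjusted p is not given here, so that these values are a description. Without GqVeh mouse 784 the log2 differences were -0.45 for Fdft1 and -0.30 for Fdps.

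**Figure D3:**
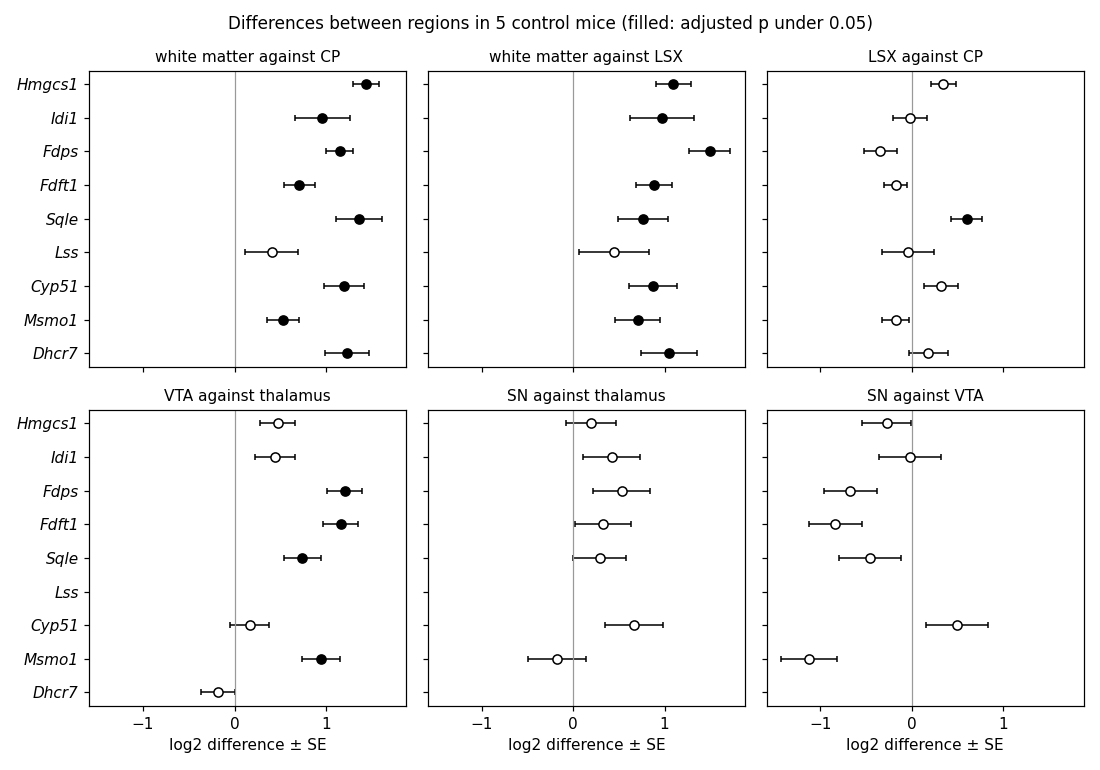
Log2 difference of each enzyme between regions of the same mouse in the 5 control mice, as mean and standard error, with filled symbols for an adjusted p under 0.05 and the vertical line at no difference. White matter against CP and against LSX has 8 filled symbols each, all to the right, VTA against thalamus 4, LSX against CP 1, and the SN comparisons none.

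Set side by side, without a comparison because the arrays were normalized separately, the 9 enzymes summed to a median of 8.24 in the SN (2.57 to 19.0), 9.30 in the VTA (5.22 to 15.5), 4.43 in the thalamus (3.85 to 7.92), 7.80 in white matter (4.44 to 9.23), 3.65 in the LSX (3.17 to 4.53) and 3.44 in the CP (3.06 to 4.09).

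GqCNO mice were then set against all 5 controls, against GqVeh and against CNO alone within each region. None of the 9 enzymes passed an adjusted p under 0.05 in any of these comparisons, in limma, in edgeR or in the methods' t-test. Against all controls, limma called 0.648% of genes in the SN, 1.52% in the VTA, 0.0% in the thalamus, 0.0367% in white matter, 0.0% in the LSX and 0.0% in the CP. Against GqVeh it called 0.194% in the SN, 0.475% in the VTA, 0.0367% in white matter and 0.0462% in the CP, and against CNO alone 0.615% in the SN and 1.12% in the VTA, with 0.0% in the other regions. Between GqVeh and CNO alone 0.0648% were called in the SN, 0.0792% in the VTA and 0.0% elsewhere, and no enzyme. Against all controls, at an unadjusted p under 0.05 in limma, 2 enzymes passed in the VTA and 3 in the CP, all with lower values in GqCNO mice, and 0 in the other regions, beside 5.99% of all genes so lower in the VTA and 2.21% in the CP. Against a single control group, lower values at that level were further found for Dhcr7 in the thalamus against CNO alone (-0.68, unadjusted p = 0.00716), and against GqVeh for Cyp51 in white matter (-0.92, unadjusted p = 0.0376) and Sqle in the CP (-0.40, unadjusted p = 0.0247). The share of all genes so lower in these comparisons is not given here, so that the values are a description. For Dhcr7 in the thalamus, 2 GqCNO mice were set against 2 CNO alone mice, with 6 to 9 UMIs each.

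In the CP, the deepest region, Hmgcs1 was at 0.557, 0.633 and 0.623 in GqCNO mice 801, 804 and 781, against 0.740, 0.804 and 0.796 in GqVeh and 0.780 and 0.786 in CNO alone mice. Every GqCNO mouse lay below every control. The mean was 0.604 ± 0.0410 in GqCNO (SD, n = 3) and 0.781 ± 0.0247 in controls (SD, n = 5), a log2 difference of -0.35 (SE 0.09, unadjusted p = 0.00319 and adjusted p = 0.999 in limma). Idi1, the isomerase, was at 0.0998, 0.133 and 0.124 in GqCNO mice, against 0.157, 0.149 and 0.186 in GqVeh and 0.163 and 0.178 in CNO alone mice. Again no GqCNO value reached a control value, and the log2 difference was -0.36 (SE 0.11, unadjusted p = 0.00591 and adjusted p = 0.999 in limma). The exact permutation test gave p = 0.0179 for each, the smallest that 56 splits of the 8 mice allow. It was run only for enzymes whose groups did not overlap, so that this p restates the lack of overlap and is no further support. Over all genes tested in the CP, 1.64% had every GqCNO mouse below all controls.

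Both enzymes differed from each control group alone at an unadjusted p under 0.05 in limma, with log2 differences for Hmgcs1 of -0.34 against GqVeh and -0.35 against CNO alone, and for Idi1 of -0.35 and -0.39. Of all genes, 0.425% were so lower against both. Within array pair 1 and array pair 2, each with all 3 groups, the log2 differences were -0.33 and -0.33 for Hmgcs1 and -0.35 and -0.35 for Idi1. In array pair 2 mouse 781 alone stood for GqCNO. No GqCNO value of either enzyme reached a control value. The negative signs against each control group and within each array pair thus restate that lack of overlap and are no further support. Over the alternatives run, the lowest adjusted p of Hmgcs1 was 0.065, with the array pair as a block. Msmo1 had 0.407, 0.535 and 0.701 in GqCNO mice, against 0.614, 0.871 and 0.806 in GqVeh and 0.617 and 0.779 in CNO alone mice. The groups overlapped for Msmo1, with a log2 difference of -0.41 (SE 0.17, unadjusted p = 0.0299 and adjusted p = 0.999), or -0.24 without GqCNO mouse 801.

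The remaining enzymes differed less in the CP. Sqle had a log2 difference of -0.30 (unadjusted p = 0.0511), Fdps of -0.16, Dhcr7 of -0.10, Cyp51 of -0.09, Lss of -0.03 and Fdft1 of 0.14. In all, 8 of 9 were negative, with a median of -0.16 against -0.00 over all genes. The summed level of the 9 was 3.06, 3.22 and 3.43 in GqCNO mice, against 3.30, 4.09 and 3.89 in GqVeh and 3.46 and 3.92 in CNO alone mice, so that the groups overlapped. Of the 13 other synthesis enzymes, 0 were called and 10 were negative (median -0.16), and the other sterol and fatty acid lists gave no call.

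**Figure D4:**
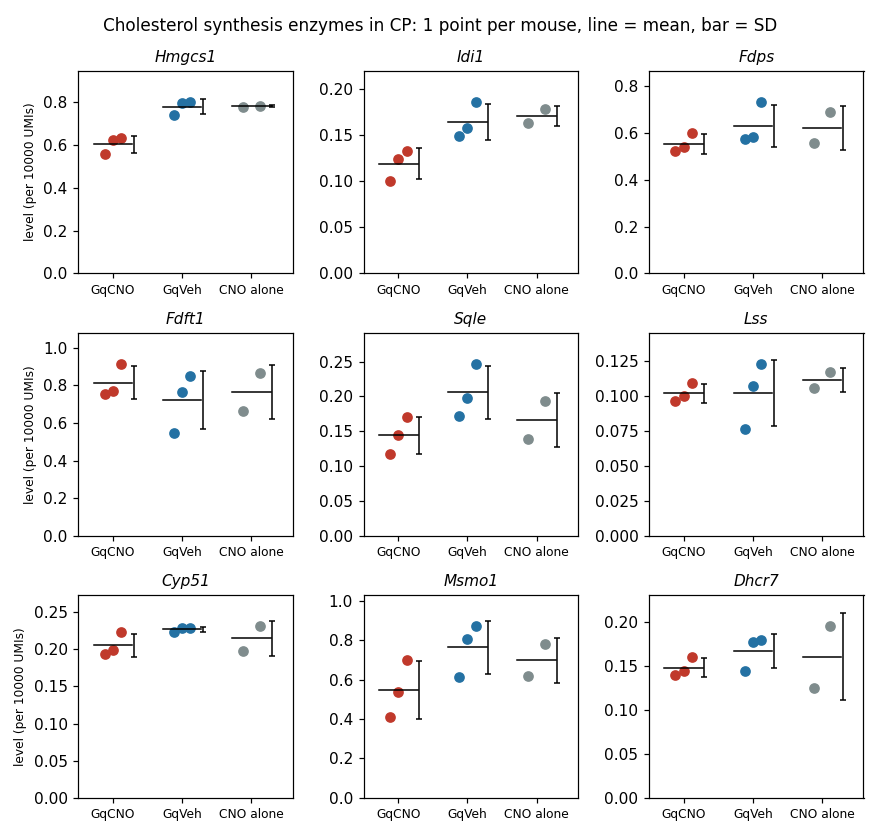
Level of each enzyme in the CP (UMIs per 10000 UMIs, vertical axes from 0) by group, with 1 point per mouse, a line at the mean and a bar of 1 SD. The 3 GqCNO points of Hmgcs1 (0.557 to 0.633) and Idi1 (0.0998 to 0.133) lie below all 5 control points, and those of the other 7 enzymes overlap with controls.

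Beside these values, the 8 general neuron markers summed to 73.0 to 81.8 in the CP of GqCNO mice, against 80.5 to 90.2 in controls, and the 5 blood cell markers to 11.97 to 14.39, against 5.23 to 12.6. The 9 astrocyte markers summed to 21.7 to 22.5, against 18.1 to 21.5. Oligodendrocyte markers (69.1 to 74.5 against 54.2 to 81.8) and striatal projection neuron markers (87.4 to 90.7 against 81.4 to 93.5) overlapped. The part of neurons, blood cells and astrocytes in the CP values was not tested.

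In the VTA, Hmgcs1 was at 1.38, 0.995 and 1.57 in GqCNO mice, against 1.99, 1.62 and 2.71 in GqVeh and 1.89 and 3.06 in CNO alone mice. The groups did not overlap, as in 4.86% of all genes on that side. The exact permutation test, run because of this lack of overlap and so no further support, gave p = 0.0536. The log2 difference was -0.59 (SE 0.25, unadjusted p = 0.0286 and adjusted p = 0.384 in limma). Fdft1 had 1.38, 0.746 and 2.02 in GqCNO mice, against 1.87, 2.06 and 3.49 in GqVeh and 1.78 and 2.14 in CNO alone mice, which overlapped (log2 difference -0.58, SE 0.27, unadjusted p = 0.0409 and adjusted p = 0.435). Without GqCNO mouse 804, which had the lowest level, the Fdft1 difference was -0.32. Of 8 enzymes tested in the VTA, 7 were negative, with a median of -0.35 against -0.06 over all genes.

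Markers of several cell types moved with the groups in the VTA discs. Dopamine neuron markers summed to 13.7 to 41.2 in GqCNO mice, against 55.0 to 85.5 in controls, and 6 of 8 were called lower. General neuron markers summed to 26.9 to 38.5, against 51.2 to 66.6, microglia markers to 33.3 to 90.2, against 4.14 to 25.4, and astrocyte markers to 33.3 to 44.4, against 17.8 to 27.8. No marker of the dopamine, microglia or astrocyte lists was at 0 throughout the VTA. Their part in the VTA values was not tested. Apoe, which carries lipid between brain cells, was the one gene of the sterol lists called in any of the regions against all controls. It was higher in GqCNO mice in the SN (0.75, adjusted p = 0.0279) and in the VTA (0.96, adjusted p = 0.0104). The SN values of GqCNO mice 801 and 781 came from 1 disc each, with 7779 and 14717 UMIs. That of GqCNO mouse 804 came from 5 discs, and those of controls from 3 to 7. In the SN too, astrocyte markers summed to 29.9 to 51.6 in GqCNO mice, against 19.8 to 31.3 in controls, microglia markers to 33.4 to 59.8, against 3.44 to 44.7, and dopamine neuron markers to 15.4 to 63.2, against 57.7 to 99.1. The part of these cells in the Apoe levels was not tested.

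In white matter all 9 enzymes had negative log2 differences between GqCNO mice and all controls (median -0.40, against -0.01 over all genes), with none below an unadjusted p of 0.05. Within array pair 1, which holds GqCNO mice 801 and 804, 8 of the 9 were negative, and within array pair 2, which holds mouse 781, 4 were negative and 5 were above 0 (among them Idi1 at 0.15 and Lss at 0.47). The summed level was 4.44, 7.81 and 7.80 in GqCNO mice, against 9.02, 9.23 and 9.12 in GqVeh and 7.73 and 6.60 in CNO alone mice, which overlapped, and mouse 801 was the lowest. Cyp51 was at 0.167, 0.615 and 0.296 in GqCNO mice, against 0.965, 0.508 and 0.551 in GqVeh and 0.430 and 0.522 in CNO alone mice (-0.76, SE 0.37, unadjusted p = 0.0547). Blood cell markers stood apart there, at 27.5 to 35.5 in GqCNO mice against 6.14 to 14.3 in controls, and their part was not tested.

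In the LSX 8 of 9 enzymes were negative (median -0.12, against -0.04). Sqle was at 0.308, 0 and 0.193 in GqCNO mice, against 0.232, 0.465 and 0.368 in GqVeh and 0.236 and 0.296 in CNO alone mice (-1.14, SE 0.55, unadjusted p = 0.0582). The value of 0 belongs to mouse 804, whose depth allows a level of up to 0.373 at no UMI. In the thalamus 6 of 8 enzymes were negative (median -0.11, against -0.01), and in the SN 3 of 8 (median 0.03, against -0.08). The 3 GqCNO mice spread most in the SN (mice 801, 804 and 781), with summed levels of 2.57, 5.31 and 19.0, against 9.08, 5.15 and 8.42 in GqVeh and 9.51 and 8.07 in CNO alone mice. Behind the sums of GqCNO mice 801 and 781 stood 2 and 28 UMIs.

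**Figure D5:**
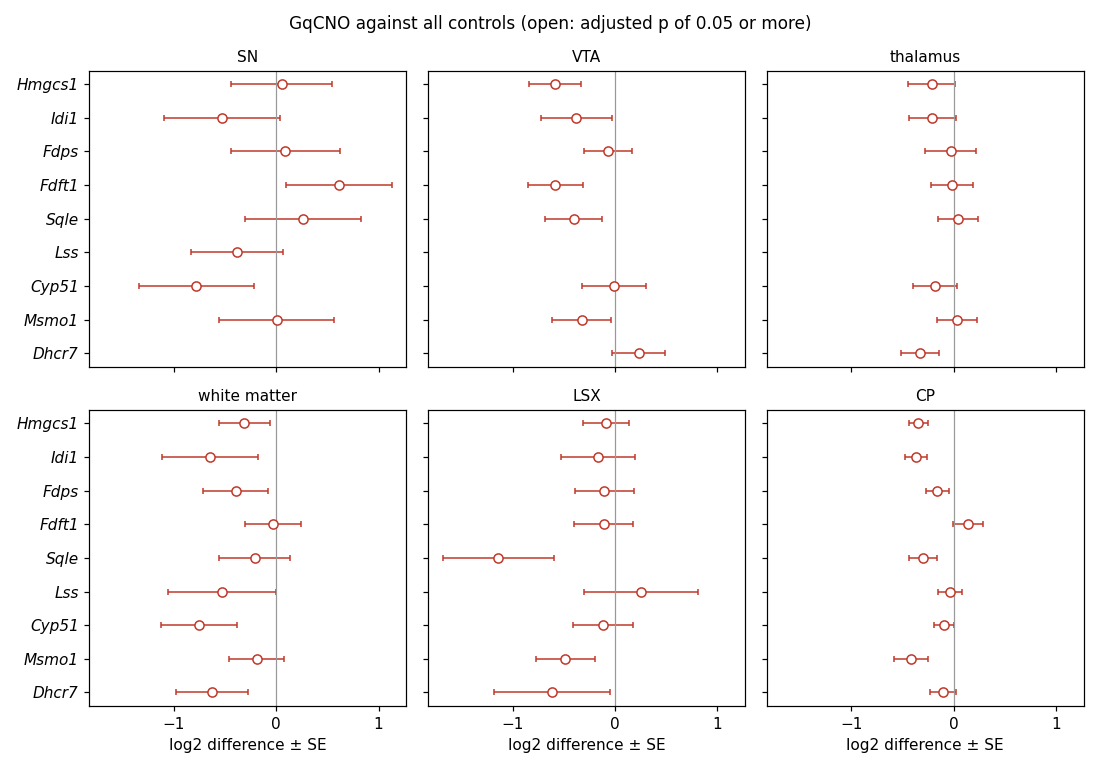
Log2 difference of each enzyme, GqCNO minus all controls, with its standard error, in the 6 regions, open symbols marking an adjusted p of 0.05 or more and the vertical line no difference. All symbols are open, and 8 of 9 lie left of the line in the CP and 9 of 9 in white matter.

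Whether the response of an enzyme differed between regions was tested on the difference between regions within each mouse. No enzyme passed for the SN against the VTA (7 tested), white matter against the CP (9 tested) or the LSX against the CP (9 tested), and neither did any other gene (0.0% in each, limma). The lowest unadjusted p was that of Fdft1, whose log2 difference between GqCNO mice and controls was 1.19 above that of the VTA in the SN (SE 0.56, unadjusted p = 0.0344 and adjusted p = 0.903). The share of all genes with such an unadjusted p is not given here. For Hmgcs1 the responses of white matter and CP differed by 0.03 (SE 0.24), and those of LSX and CP by 0.26 (SE 0.22).

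The genes whose levels ran most like the sum of the 9 enzymes differed by tissue. Over the 24 columns of region and mouse on the striatal arrays, the closest of 12061 genes were Cavin3 (Pearson r = 0.94), Ninj2 (0.94), Cplx3 (0.94), Nxph3 (0.93), Cck (0.92), A230001M10Rik (0.92), Ifi27 (0.91) and Neurod2 (0.91). The median r was 0.82 over the oligodendrocyte markers and -0.19 over all genes. Over the 23 midbrain columns, the closest of 7878 genes were Resp18 (0.87), Tmem255a (0.87), Arl6ip1 (0.86), Tecr (0.86), Rnasek (0.85), Tagln3 (0.85), Mllt11 (0.85) and Dnajc12 (0.85). Here the median r was 0.72 over the dopamine neuron markers, -0.52 over the thalamic markers and -0.11 over the oligodendrocyte markers. The columns share mice, arrays and depth, and some markers had served to pick the discs, so that these values are a description.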

How the data were processed

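Gene levels were analysed in 47 columns, 1 per region and mouse, from 4 Visium v1 arrays with 4 mice each. Per the labels and methods, the authors aligned reads to mm10 with Space Ranger (its version is not given in the sources used here), chose discs by position, marker genes and TH-positive somata, and deposited the signal as a median-normalized average per region and mouse. Each of the deposited signal columns held whole multiples of 1 step (100% of values under 200 steps, within 0.05 steps), from which UMI counts were recovered. Columns were rescaled to 10000, and genes absent from an array were given 0.

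Tested genes had a mean level of 0.25 or more on midbrain arrays and 0.05 or more on striatal arrays, and were tested on log2(level + 0.5) or log2(level + 0.05), so that log2 differences understate changes of low genes. limma 3.58.1 (R 4.3.3) fitted 3 group means per region, or the difference between 2 regions per mouse, with a variance trend and Benjamini-Hochberg adjustment over all genes tested. Region comparisons took genes that passed the minimum in both regions. The mouse was the replicate. Exact permutation tests were two-sided and were run only for enzymes whose GqCNO and control values did not overlap. Fits were tested on simulated data. Alternatives were the deposited scale, TMM scaling, other constants and filters, the array pair as a block, edgeR 4.0.16 on recovered UMIs, the methods' t-test and leaving out each mouse.

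The 9 enzymes and all lists were chosen with earlier results of these data known. Named genes were the 9 enzymes, up to 3 genes per pathway list with the smallest adjusted p under 0.05, and the 8 genes per tissue that correlated best with the summed enzymes. The array pair says which mice shared arrays, and no pairing of single mice is given. Disc labels served to count discs, and image files and disc positions were not used. Results on 2 genes are not reported here.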

Additional observations from a re-analysis of the deposited data

Results flagged for a closer look

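In 7 of 60 groups of 5 control mice (the 9 enzymes and their sum, each in 6 regions), 1 mouse stood far from the other 4 by Dixon's criterion. Its rate of about 1 group in 20 holds for independent normal values. Counts of a few UMIs are not such values, and the groups share mice, so that no excess is read from the number. In the SN, GqVeh mouse 784 had Idi1 at 1.72 (others 0.351 to 0.605) and Lss at 1.72 (others 0 to 0.202), 2 UMIs each. There CNO alone mouse C1W7 had Dhcr7 at 0.139, from 1 UMI, where the others had 0. In the VTA, GqVeh mouse 785 had Fdft1 at 3.49 (others 1.78 to 2.14), from 9 UMIs. In the CP, CNO alone mouse C1W7 had Cyp51 at 0.198 (others 0.223 to 0.231). In white matter, GqVeh mouse 784 had Fdps at 1.94 (others 1.28 to 1.40) and GqVeh mouse 802 had Cyp51 at 0.965 (others 0.430 to 0.551).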

How the results depend on the processing

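In the 27 group comparisons and differences of response, 0 enzymes were called under every alternative run. Of the single enzyme results, 409 of 449 kept direction and side of the threshold, 36 lost the call, 4 gained it and 0 reversed. The number of enzymes called in white matter against the CP was 8, or 4 with the stricter filter (4 enzymes tested), and 6 to 8 leaving out 1 mouse. With no filter, Idi1 and Msmo1 lost that call. Against the LSX it was 8, or 5 with the smaller constant, 5 with no filter, and 3 to 7 leaving out 1 mouse (3 without GqVeh mouse 802). For the LSX against the CP it was 1, or 0 with the stricter filter, 3 in edgeR, and 0 to 3 leaving out 1 mouse (3 without GqVeh mouse 784, 0 without GqVeh mouse 785 or either CNO alone mouse). For the VTA against the thalamus it was 4, or 2 with no filter, 0 with the stricter filter (1 enzyme tested), and 3 to 4 leaving out 1 mouse. For the SN against the thalamus it was 0, or 1 in edgeR, 1 with all 8 mice, and 0 to 2 leaving out 1 mouse (2 without GqVeh mouse 784). In the window of 150 bases before the start, 1 of 6 enzymes had TCACNCCA (3.33% of all genes).

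The genes called, GqCNO against all controls, ranged over all settings from 0 to 75 in the SN (main 40), 0 to 142 in the VTA (96), 0 to 6 in the thalamus (0), 0 to 47 in the CP (0, and 47 once the array pair was blocked), 0 to 5 in white matter (4) and 0 in the LSX. Between regions they ranged from 0 to 12 for the SN against the VTA (6), 269 to 825 for the SN against the thalamus (634), 562 to 1574 for the VTA against the thalamus (1227), 2292 to 4822 for white matter against the CP (3922), 2039 to 3990 for the LSX against the CP (2988) and 2185 to 4185 for white matter against the LSX (3435). edgeR, with its own scaling, split the calls into 1907 higher and 1778 lower for white matter against the CP, 1579 and 1473 against the LSX, 1927 and 2063 for the LSX against the CP, and 700 and 840 for the VTA against the thalamus. TMM scaling moved the median of all genes to -0.14 for the LSX against the CP, -0.06 for white matter against the LSX and -0.22 for the SN against the thalamus. The cause of these changes was not tested.

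The array pair as a block changed no call of an enzyme. No paired analysis was possible because the replicate numbers of the arrays do not pair single mice of different groups. Depth limited the SN most, where 1 UMI was worth a level of 0.139 to 1.29.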
